A study of Mus musculus with 2 samples.

Results

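The microRNA families miR-297, miR-466, miR-467 and miR-669 were examined in microRNA-seq libraries of mouse cerebral cortex. Their genes were found by symbol in the GENCODE M21 annotation of mm10 (Mir297, Mir466, Mir467 or Mir669, followed by nothing, a letter, or a letter and a copy number), which gave 80 of the 2202 microRNA genes counted. Of these, 71 lie inside the gene Sfmbt2 on chromosome 2 and 9 lie elsewhere. Mir297-1 on chromosome 7 carries a copy number without a letter and is not among the 80; it had no read in either library.

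The tissue was left cerebral cortex from male animals labelled 5xFAD/CAST, adults of 8 to 10 months; the RNA was sequenced in a fraction shorter than 30 bases. 5xFAD is a transgenic model in which amyloid plaques form in the brain, and CAST commonly stands for a wild-derived inbred line. The data are 2 libraries of 1 group, biological replicates 1 and 2, and 1 donor identifier is given for both, so that the spread between them may be technical. Control mice were not analysed here, and whether the sampled animals carried the transgenes is not given in the sources used here.

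MicroRNAs are cut from hairpin precursors by Drosha and Dicer, and one strand of the duplex then guides Argonaute proteins to messenger RNAs, mainly through its seed, bases 2 to 8. Sfmbt2 encodes a Polycomb group protein, and in mouse extraembryonic tissue it is expressed from the paternal allele. One of its introns holds a large tandem array of microRNA genes that is found in rodents and is best known from the placenta and from embryonic stem cells. The hairpins of the array resemble each other closely, and many contain long runs in which purines and pyrimidines alternate, as in CA or UG repeats.

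RefSeq (GRCm38.p6) listed a mature sequence for 8 of the 80 members, all of them outside Sfmbt2. They are shown because they let the repeat-like character of these outside members be read directly. The longest alternating run of the precursor had a median of 39 bases in the 9 members outside Sfmbt2 and 24 in the 71 inside. Capitals mark the seed.
mmu-miR-466i-3p: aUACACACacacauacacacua
mmu-miR-466j: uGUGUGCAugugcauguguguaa
mmu-miR-466k: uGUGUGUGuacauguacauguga
mmu-miR-466q: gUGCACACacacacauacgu
mmu-miR-467f: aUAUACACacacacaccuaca
mmu-miR-467g: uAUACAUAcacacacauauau
mmu-miR-467h: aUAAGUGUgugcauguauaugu
mmu-miR-669n: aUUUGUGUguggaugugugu

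These sequences lie at chr13:17747552-17747573 for miR-466i-3p, chr10:60960802-60960824 for miR-466j, chr3:85467396-85467418 for miR-466k, chr3:28419988-28420007 for miR-466q, chr9:115381898-115381919 for miR-467h and chr3:115979905-115979924 for miR-669n, all on the plus strand. On the minus strand, miR-467f lies at chr11:69635419-69635439 and miR-467g at chr5:34732872-34732892. The 8 sequences had 8 different seeds, although they belong by name to 3 families. Among the 1738 mature sequences of the table, the seed of miR-467h was also found in miR-668-5p. Its gene Mir668 had 7420 reads in replicate 1 and 6065 in replicate 2. The other 7 seeds were each found once in the table. It holds no mature sequence of the members inside Sfmbt2, so whether they share these seeds was not examined. In 7 of the 8 (miR-669n was the exception), at least 16 bases in a row alternated between purine and pyrimidine. Such a run was present in 8 of all 1738 mature sequences of the table (0.46%), with these 7 included and the members inside Sfmbt2 absent. The median longest run in the table was 4 bases. The sequence of miR-467h was also found whole in the neighbouring genes Gm26303 and Gm25510, both without a read.

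The libraries were of like size, with 16403925 reads in replicate 1 and 16991914 in replicate 2; sense reads of microRNA genes made up 4929428 and 4441328 of them. Levels are sense counts scaled to 1000000 assigned reads (CPM), so that 1 read is 0.203 CPM in replicate 1 and 0.225 CPM in replicate 2. They were not divided by gene length, since each read of this assay covers about a whole mature microRNA. Reads that mapped to several places are kept in a separate total, 38.5% of all reads in replicate 1 and 33.0% in replicate 2, and are in no gene count. Of the neuronal marker genes, 4 of 6 were detected and took 4.56% and 5.85% of the assigned reads in replicates 1 and 2; the 9 genes of the embryonic stem cell list had 9 reads in each library. The red blood cell list, Mir144 and Mir451a, took 0.0587% in replicate 1 and 0.00585% in replicate 2. In the same order, the lists took 3.93% and 3.04% for astroglia, 0.339% and 0.562% for oligodendrocytes, 0.121% and 0.103% for microglia and leukocytes, 2.04% and 2.18% for vessels and 0.119% and 0.0630% for the choroid plexus, and the 8 genes of the X-linked testis cluster had no read. Of the 4 detected neuronal genes, only Mir132 was higher in replicate 2 (19682 and 44698 CPM). Mir128-1 (13556 and 7493 CPM) and Mir137 (12338 and 6351 CPM) were lower there, and Mir124a-1 had 21 and 12 assigned reads. The undetected genes of the list were Mir124a-2 and Mir124a-3. Multimapping reads are in none of these counts, so the counts of these genes do not give the level of miR-124. The larger neuronal share of replicate 2 was thus not shared by the list as a whole. Within the astroglia list, Mir31 was higher in replicate 2 (115 and 1551 CPM) and Mir23b was lower (25038 and 14908 CPM). Mir29a was nearly level (14129 and 13906 CPM). Within the microglia and leukocyte list, Mir150 was lower in replicate 2 (1073 and 874 CPM), whereas Mir142 (132 and 145 CPM) and Mir223 (9.33 and 10.8 CPM) were not. The part of these shifts in the differences between libraries given below was not tested.

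The miR-467 and miR-669 families were counted in this cortex at a low level, almost wholly as 8 genes of the Sfmbt2 intron, and the miR-466 and miR-297 families gave 4 reads or fewer in each library. Together the 80 genes had 4122 reads in replicate 1 and 4404 in replicate 2. This was 0.0836% of the assigned reads in replicate 1 (exact 95% binomial interval 0.0811 to 0.0862%) and 0.0992% in replicate 2 (0.0963 to 0.102%), or 0.0914 ± 0.0110% (SD, n = 2). Detection was set at a minimum of 10 reads per library, which 8 of the 80 reached; another 4 had fewer reads, and 68 had none. Over all 2202 genes, 18.9% were detected and 65.2% had no read, against 10.0% and 85.0% of the members. For a gene whose reads map to it alone, a count of 0 allows a level of up to 3 reads, 0.609 CPM in replicate 1 and 0.675 CPM in replicate 2, which covers counting error only; for a gene that shares its sequence with others it sets no such limit.

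Nearly all the reads came from genes inside Sfmbt2, while the share of genes without a read was 84.5% inside and 88.9% outside. Inside, 8 of 71 were detected, 3 more had a read and 60 had none. Outside, 0 of 9 were detected; Mir466q, in an intron of the kinase gene Tnik on chromosome 3, had 1 read in each library, and the other 8 had none. Genes inside Sfmbt2 supplied 4121 of the 4122 reads of replicate 1 and 4403 of the 4404 of replicate 2, a share of 99.977 ± 0.0011% (SD, n = 2). The median level over all genes was 0 CPM in both libraries, inside as well as outside. No test was made across genes, since they share sequence and, inside Sfmbt2, a host transcript.

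The 9 outside genes lie on 6 chromosomes, and Mir467h has Gm26303 and Gm25510, which hold its whole mature sequence, directly beside it. Mir466q (chr3:28419943-28420018) is the only one of them in an intron of a gene on its own strand. Another 5 lie in introns of genes on the opposite strand: Mir467f (chr11:69635400-69635519) in Fxr2, Mir466i (chr13:17747473-17747593) in Cdk13, Mir467g (chr5:34732853-34732972) in Grk4, Mir669n (chr3:115979902-115979955) in Slc30a7 and Mir466k (chr3:85467377-85467498) in Gm37240. The remaining 3 are Mir466j (chr10:60960723-60960844), Mir466f-4 (chr13:71107089-71107209) and Mir467h (chr9:115381819-115381939). Among annotated genes other than the counted microRNA genes, none contains any of these 3 whole. Partial overlaps were not searched. On the strand opposite to the members there were 0 reads in replicate 1 and 2 in replicate 2. Both lay at Mir467f, on the strand from which Fxr2 is transcribed.

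The 71 inside genes all lie on the plus strand in a single intron of 62.47 kb (chr2:10461473-10523944), intron 10 of the transcript Sfmbt2-201, within the gene at chr2:10370510-10595253. They span 51.62 kb of it. The detected members lay towards both ends of this span, and a long middle stretch was empty. The first 13 members, from 5.19 to 12.46 kb after the start of the intron, held 3 detected genes (Mir669e, Mir669l and Mir467c) and 3.32% of the members' reads in replicate 1 and 5.56% in replicate 2. The next 38 members, between Mir467c and Mir467e (12.75 to 42.32 kb), had no read in either library. The last 20, from Mir467e at 44.25 kb onwards, held the other 5 detected genes and 96.7% and 94.4% of the reads in replicates 1 and 2. These 3 stretches were drawn after the values were seen.

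**Figure D1:**
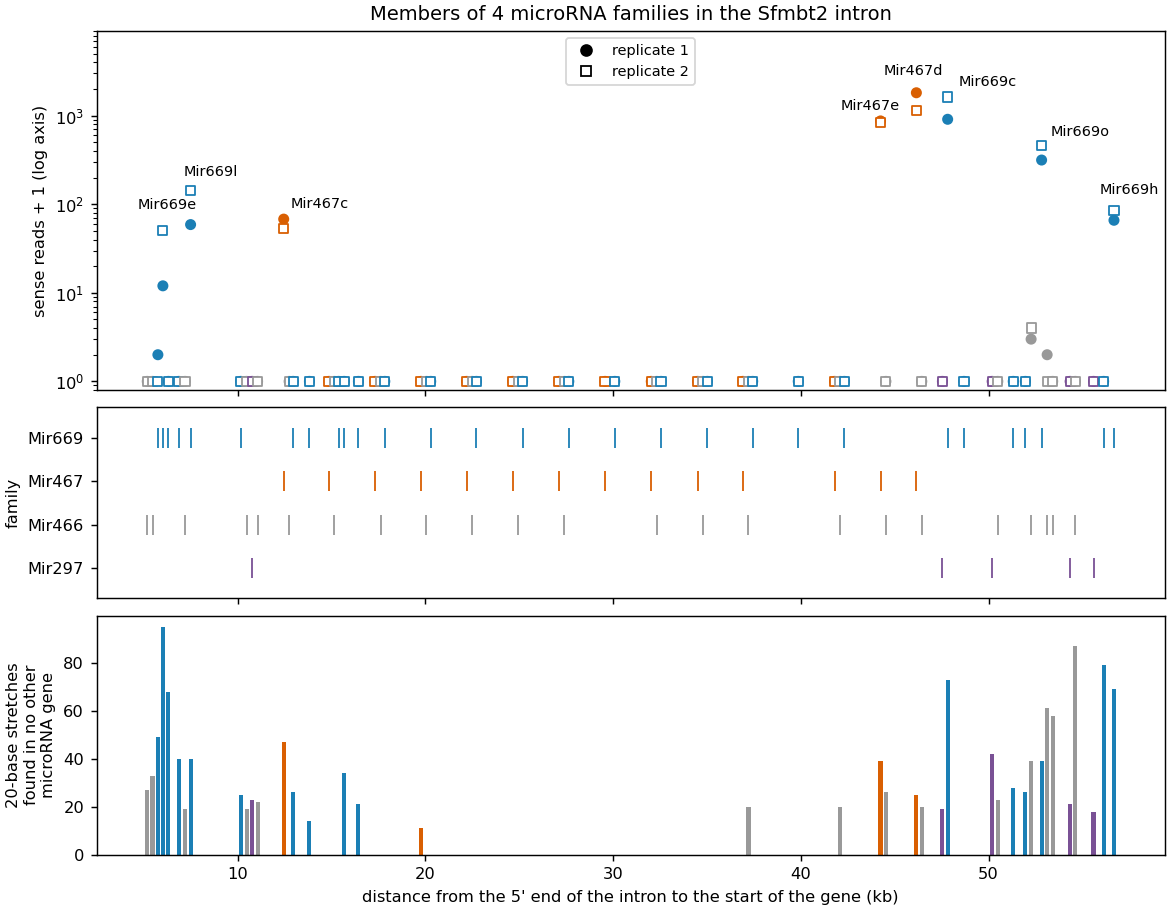
Top, sense reads plus 1 on a log axis for each of the 71 members inside the Sfmbt2 intron, by distance in kb from the 5′ end of the intron, with filled circles for replicate 1 and open squares for replicate 2. Middle, the position of each member by family; bottom, the number of its 20-base stretches found in no other annotated microRNA gene, with the 38 members between Mir467c and Mir467e at 1 in the top panel and mostly at 0 in the bottom panel.

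The empty middle stretch is the part of the array with regular copies. Mir467a and its near copy Mir467b occur there 11 times, and 9 of the 10 gaps between their starts measured 2413 to 2470 bases; the longest gap was 4880 bases. Of these 11 copies, 10 were followed within 600 bases by both a Mir466 gene, 282 to 292 bases further on, and a Mir669 gene, 507 to 518 bases further on. All 10 copies of Mir467a, all 12 of Mir669a, all 8 of Mir466b, both of Mir466c and both of Mir669p had no read in either library.

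How much of each gene can be told from its copies was measured next, since reads that map to several places are counted apart. Each precursor was cut into all its stretches of 20 bases, and a stretch was called private if no other annotated microRNA gene held it on either strand; the rest of the genome was not searched. Of the 80 members, 32 had no private stretch, and these 32 had no read in either library. Of the 38 members in the middle stretch, 31 were among them. Among the 48 with a private stretch, 8 were detected and 36 had no read. For the 2122 other genes of the table the corresponding figures were 18 detected of 306 without a private stretch (5.88%) and 391 of 1816 with one (21.5%). The part of shared sequence in the absence of reads was not tested.

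Private stretches in a precursor did not by themselves come with reads. They were counted over the whole precursor, so a private stretch need not lie in the mature microRNA. Their number therefore does not show that the reads of a gene map to it alone. The 8 detected members had between 25 private stretches (Mir467d, of 66) and 95 (Mir669e, of 100), with a median of 43.5. Of all members, 34 had at least 25, and 22 of these had no read. They include 8 of the 9 outside genes, among them Mir466f-4 with 92 private stretches and Mir466j with 89. Inside the intron, 14 such genes had no read, among them Mir466l with 87 private stretches, Mir669i with 79, Mir669b with 68 and Mir466h with 58. The value of 25 is the lowest among the detected members, so that none of the 46 members below it was detected follows from how it was set; these 46 had no read.

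**Figure D2:**
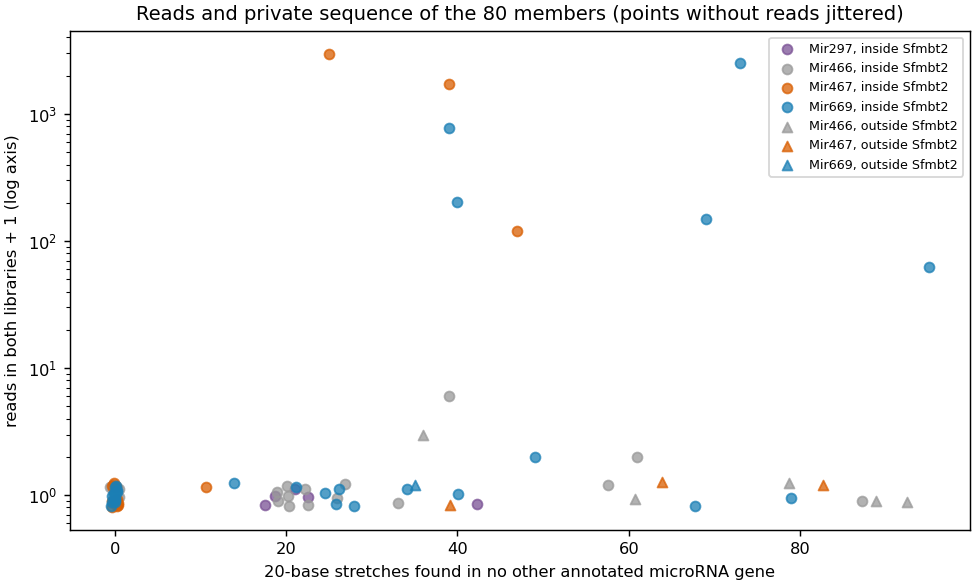
Reads of both libraries together plus 1 (log axis) against the number of 20-base stretches found in no other annotated microRNA gene, for each of the 80 members, with colour for the family, circles for genes inside Sfmbt2 and triangles for genes outside. The 32 members at 0 on the horizontal axis all lie at 1, that is without reads, and members with many private stretches lie both high and at 1.

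The precursors of these families stand apart in composition from most of the table. A run of at least 20 alternating purines and pyrimidines was present in 66 of the 80 members (82.5%) and in 186 of the 2122 other genes (8.77%). The median longest run was 25 bases in the members and 6 in all genes. The run did not separate the members by detection: 7 of the 8 detected ones had it. The median GC content was 36.6% in the members and 50.8% over all genes.

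Mir467d (ENSMUSG00000077021.2, chr2:10507630-10507714) had the highest mean CPM of assigned reads among the members. It had 1817 reads in replicate 1 and 1150 in replicate 2, or 369 and 259 CPM, with a mean of 314 ± 77.5 CPM (SD, n = 2). It ranked 148 among the 2202 genes by mean CPM. Multimapping reads are in no gene count, so this ranking does not place the members without a private stretch. Detected genes outside the families with the nearest mean levels were Mir376c of the Dlk1-Dio3 locus (311 ± 99.6 CPM), Mir301 (320.5 ± 420.1 CPM) and Mir92-1 (322 ± 75.2 CPM).

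Mir467e and Mir467c were the other detected members of the miR-467 family. Mir467e (chr2:10505721-10505807), 1909 bases upstream of Mir467d, had 873 and 834 reads in replicates 1 and 2, or 177 and 188 CPM (182 ± 7.55 CPM). Mir467c (chr2:10473931-10474027), at the other end of the empty stretch, had 67 and 52 reads, or 13.6 and 11.7 CPM (12.7 ± 1.33 CPM). The remaining 14 of the 17 Mir467 genes had no sense read. Summed over the family this was 559 CPM in replicate 1 against 458 CPM in replicate 2 (509 ± 71.3 CPM).

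In the miR-669 family 5 of 30 genes were detected, and Mir669c led them. Mir669c (ENSMUSG00000076118.1, chr2:10509296-10509404), 1666 bases downstream of the start of Mir467d, had 911 reads in replicate 1 and 1627 in replicate 2, or 185 and 366 CPM (276 ± 128 CPM). Mir669o (chr2:10514300-10514395) had 315 and 460 reads, or 63.9 and 104 CPM. The other 3 were lower and are named in the order of their means.

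Mir669l (chr2:10468971-10469068) had 58 and 143 reads in replicates 1 and 2, or 11.8 and 32.2 CPM. Mir669h (chr2:10518155-10518279), the last member along the array, had 65 and 84 reads, or 13.2 and 18.9 CPM. Mir669e (chr2:10467495-10467613) had 11 and 50 reads, or 2.23 and 11.3 CPM. Each of the 5 was higher in replicate 2, and the family sum was 276 CPM in replicate 1 against 532 CPM in replicate 2 (404 ± 181 CPM). Of the other 25 Mir669 genes, Mir669f had 1 read in replicate 1 and the rest had none.

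The miR-466 and miR-297 families gave almost no reads. None of the 28 Mir466 genes was detected: Mir466n had 2 reads in replicate 1 and 3 in replicate 2, Mir466q had 1 and 1, Mir466g had 1 and 0, and the other 25 had none. This is 4 reads for the family in each library. The 5 Mir297 genes, all inside Sfmbt2, had no read. Their precursors hold between 18 (Mir297a-4) and 42 (Mir297b) private stretches, and all but Mir297b hold fewer than 25, the lowest number among the detected members.

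The order of the detected members differed between the libraries at the top. In replicate 1 Mir467d was highest, and the counting intervals of Mir669c (173 to 197 CPM) and Mir467e (165.5 to 189 CPM) overlapped. In replicate 2 Mir669c was highest (349 to 385 CPM), followed by Mir467d (244 to 274 CPM) and Mir467e (175 to 201 CPM). Mir669o came next in both. Over both libraries the means of Mir467d and Mir669c lay closer together than the SD of either. The 3 genes Mir467d, Mir669c and Mir467e took 87.4% of the members' reads in replicate 1 and 82.0% in replicate 2.

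**Figure D3:**
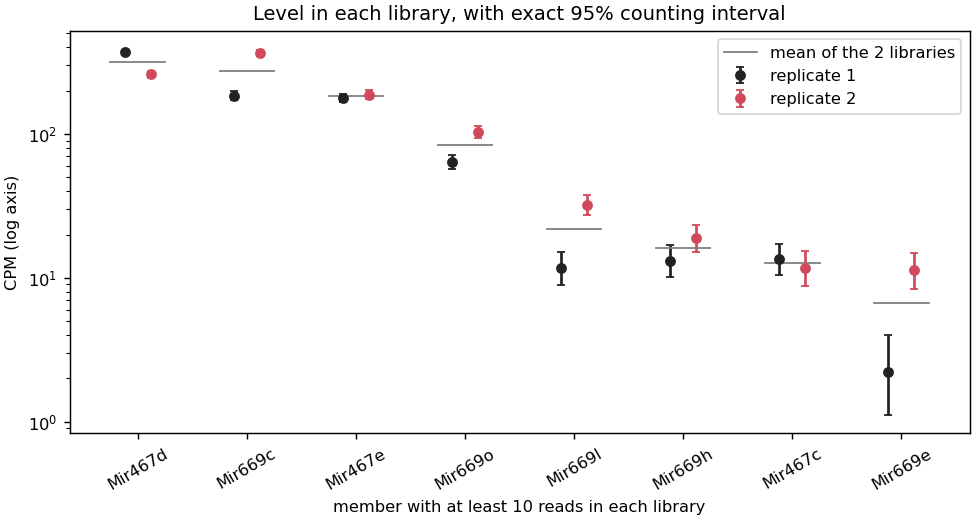
Level in CPM (log axis) of the 8 detected members in replicate 1 (black) and replicate 2 (red), with exact 95% Poisson intervals that cover counting error only and a grey line at the mean. Mir467d, Mir669c and Mir467e lie above 170 CPM in both libraries, and Mir669e is lowest, at 2.23 and 11.3 CPM.

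Each detected gene was then tested between the libraries (exact binomial test, two-sided, with Benjamini-Hochberg adjustment over all 417 detected genes). The test covers read-counting error only, holds no estimate of the spread between samples, and compares these libraries and not conditions. Of the 8 detected members, 5 differed, 4 of them higher and 1 lower in replicate 2. Over all 417 genes 59.2% differed, 24.7% higher and 34.5% lower, so the share of members that differed was near that of all genes. The members' median log2 ratio of replicate 2 to replicate 1 was 0.61, and that of all 417 genes was -0.05.

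The lower member was Mir467d, with a log2 ratio of -0.51 (exact 95% interval -0.62 to -0.40, adjusted binomial p = 1.25e-20). Mir467e and Mir467c had log2 ratios of 0.08 (-0.05 to 0.22) and -0.22 (-0.77 to 0.33), and neither passed the threshold of 0.05 (adjusted binomial p = 0.323 and 0.566). With all reads of the library as the total, which moves the median of all genes from -0.05 to -0.25, the sign of Mir467e turned, to -0.12. Only Mir467d of these 3 members passed the test.

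The members higher in replicate 2 all belong to the miR-669 family. Mir669c had a log2 ratio of 0.99 (0.87 to 1.11, adjusted binomial p = 2.06e-63), Mir669o one of 0.70 (0.49 to 0.91, p = 8.91e-11), Mir669l one of 1.45 (1.00 to 1.92, p = 4.17e-11) and Mir669e one of 2.33 (1.37 to 3.43, p = 1.06e-07). Mir669h, at 0.52 (0.04 to 1.01), missed the threshold with an adjusted binomial p of 0.0549, and passed it under TMM factors (0.0301) and under DESeq2 size factors (0.0449); over the alternatives this p ran from 0.0301 to 0.254. Mir669l and Mir669e were more than 2-fold apart, as were 49 of all 417 detected genes. Mir669e rests on 11 reads in replicate 1, and its ratio was the widest of the 8 members.

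The ratio of the families' reads was also taken within each library. There were 2.03 reads of Mir467 genes for each Mir669 read in replicate 1 and 0.861 in replicate 2. The log2 ratio of the summed Mir467 reads was -0.29 (exact 95% interval -0.37 to -0.20) and that of the summed Mir669 reads was 0.95 (0.85 to 1.04), and these intervals cover counting error only. The neighbours Mir467d and Mir669c gave 1.995 reads of the first for each of the second in replicate 1 and 0.707 in replicate 2. With a single group of 2 libraries, a difference between animals and a technical one cannot be told apart.

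**Figure D4:**
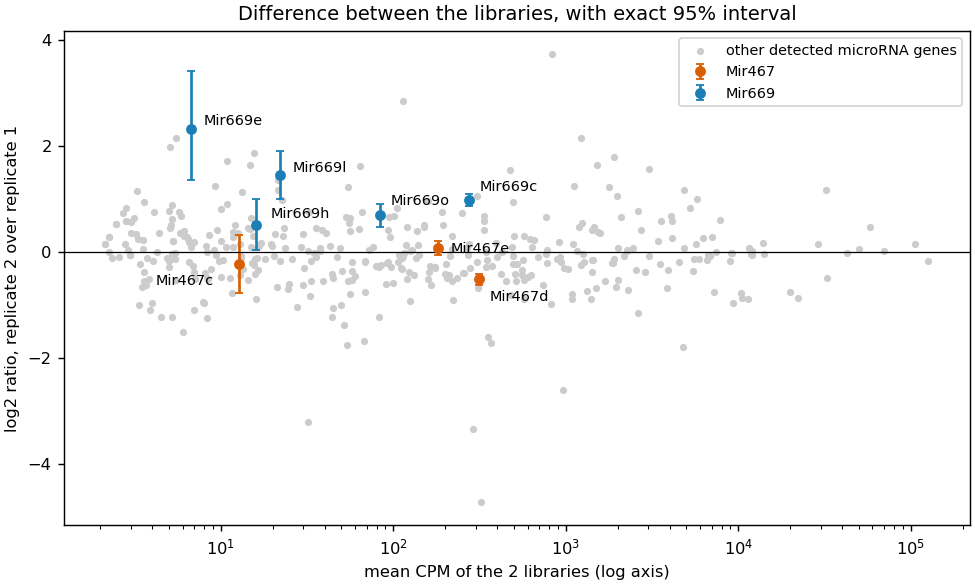
Log2 ratio of replicate 2 to replicate 1 against the mean CPM of both (log axis) for the 417 detected genes, with the 3 detected Mir467 members in orange and the 5 Mir669 members in blue with exact 95% intervals, and other genes in grey. The Mir669 members lie between 0.52 and 2.33 and the Mir467 members between -0.51 and 0.08, within the range of the other genes.

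The intron holds 48 further annotated microRNA genes that carry other names, and they gave few reads. None was detected, and 3 had any read: Gm22072 with 3 and 0 reads in replicates 1 and 2, Gm26398 with 0 and 1 and Gm22239 with 1 and 0. Of the 48, 22 had no private stretch. The distal Dlk1-Dio3 cluster on chromosome 12, another large array of microRNA genes on a single strand, had far more assigned reads in the same libraries. Multimapping reads are in the counts of neither array, so this does not compare their full levels. Of its 38 genes from Mir379 to Mir410, 33 were detected, and the 38 together took 4.38% of the assigned reads in replicate 1 and 4.63% in replicate 2. There 4 of the 38 genes had no private stretch, against 32 of the 71 members inside Sfmbt2.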

How the data were processed

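MicroRNA-seq of 2 libraries was used as deposited by the authors, as raw read counts per microRNA gene in 3 columns: sense, antisense and both strands together. The assembly is mm10 and the annotation GENCODE M21, per the notes deposited with the files. Which aligner and counting software were used is not given in the sources used here. Of all reads, 30.1% in replicate 1 and 26.1% in replicate 2 were assigned to genes. Unmapped reads (25.6% and 34.3%), multimapping reads and reads outside genes (5.82% and 6.54%) stayed out of totals and tests.

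The sense column was used. Symbols, positions, hosts and precursor sequences came from GENCODE M21 and mature sequences from RefSeq (GRCm38.p6). Intervals are exact at 95%. Tests used Python 3.11.15 and scipy 1.17.1 and were tested on simulated data; scaling alternatives used edgeR 4.0.16 and DESeq2 1.42.0 in R 4.3.3. Since there is 1 group, no edgeR contrast exists. Genes named are all detected members, the up to 5 others with most reads, those with a printed sequence, those with 10 or more antisense reads (none), the 3 other genes nearest in level to the leading member and the other microRNA genes in Sfmbt2; the remaining outside genes, the copy groups, Mir466l, Mir669i, Mir669b and Mir466h were picked with their values in view. The members and lists were chosen with earlier results of these data known. Other alternatives were detection at 1, 5 or 20 reads, counts without strand, all reads as the total and each library alone; 2 were added after seeing the data.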

Additional observations from a re-analysis of the deposited data

How the results depend on the processing

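Over the alternatives, the 8 detected members became 7 to 10 and the 68 without a read became 67 to 70. The 5 that differed between the libraries became 5 or 6. Each of these counts stayed within 1.5 times its main value under each alternative run. With each library alone, 68 to 70 members had no read. The values that moved were the level of Mir467e, 196 CPM in counts without strand; the members' share of reads, 0.0255% with all reads of the library as the total; the share from inside Sfmbt2, 99.954% in counts without strand, where both opposite-strand reads at Mir467f are counted; and the detected genes outside Sfmbt2, from 0 to 1 (Mir466q) when 1 read in each library sufficed. Mir669h passed the threshold at a minimum of 20 reads too (adjusted binomial p = 0.0496), where fewer genes are tested. With stretches of 18 or 22 bases, 32 members again had no private stretch, and counting Mir297-1 as a member gave 69 without a read; both alternatives were chosen after seeing the data. The planned difference in median level between detected genes inside and outside Sfmbt2 has no value, since none outside was detected. Depth limits what can be said of a member without a read to the level of 3 reads where its reads map to it alone, and sets no limit for the 32 without a private stretch. None of these counts includes multimapping reads, of which there were 1.28 per assigned read in replicate 1 and 1.26 in replicate 2. No paired analysis was possible because there is a single group.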
